A study of Mus musculus with 51 samples.

Results

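In Hi-C of Sertoli cells that had lost DMRT1, some 10 kb stretches of chromatin took part in several loops. Every interaction in the deposited list joins a pair of 10 kb anchors on 1 chromosome, and a hub is here an anchor that occurs in 2 or more interactions. Both anchors of all 4291 interactions were pooled, which gave 7225 distinct anchors, of which 1185 (16.4%) were hubs. Just inside the limit lay 1037 anchors in 2 interactions and just outside it 6040 anchors in 1 interaction. A further 128 anchors were in 3 interactions, 17 in 4, 2 in 5 and 1 in 6. At least 1 end was a hub in 2120 of the interactions (49.4%).

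The cells came from testes of mice at postnatal day 7 (P7) on a mixed 129Sv and C57Bl/6J background. The Hi-C libraries (1a, 1b, 2a and 2b, from 2 independent replicates) carry the label *Dmrt1* -/-. The matching RNA libraries were made from 3 samples of *Dmrt1* f/f cells (nulls) and 3 of *Dmrt1* f/+ cells (controls), all of which also carried the reporter CAG-Stopflox-tdTomato and the driver Dhh-Cre. Dhh-Cre deletes the floxed allele in Sertoli cells and in other cells that express *Dhh*. The controls thus had 1 copy of *Dmrt1* open to deletion, and the paper calls them heterozygous, although their titles read +/+. Whole gonads were profiled at P28 (*Dmrt1* +/+, +/-, -/- and R111G/+) and at P3 (+/-, -/-, R111G/+ and R111G/-), with 3 libraries per genotype, and -/- was compared with +/-. Sertoli cells were isolated from tubules of 2 mice per tube by depletion with Thy1 and c-Kit antibody beads. The Hi-C list pools all libraries and has no score or p-value. No list of control cells was analysed here, so nothing below says whether a hub depends on DMRT1, and the loops are described without a test.

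Chromatin loops are made largely by cohesin, a ring complex that extrudes DNA until it meets the zinc finger protein CTCF bound to its motif. CTCF stops cohesin mainly when its motif faces the incoming loop, so the motifs at the ends of a loop tend to point toward each other. Enhancers and promoters also contact each other without CTCF. Sertoli cells are the supporting cells of the testis, and DMRT1 is a transcription factor that keeps them from turning into granulosa-like cells of the ovary.

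The strand of the CTCF motif differed with the side on which a hub's partners lay, and the windows below show what was counted. The motif was searched as CCACNAGNNGGC on both strands, with N for any base. Each line gives 60 bases of GRCm38 around the match, read 5′ to 3′ on the strand that holds it, with the match in capitals. They are the 8 hubs with a match among the 20 in most interactions, and each of them was in 4 interactions and held 1 match.
Hub nearest *Creb1*, chr1:64448265-64448324, minus strand: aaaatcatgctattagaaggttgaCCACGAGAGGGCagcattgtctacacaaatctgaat
Hub at *Chrm4*, chr2:91927993-91928052, plus strand: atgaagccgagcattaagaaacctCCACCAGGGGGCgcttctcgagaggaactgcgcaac
Hub in *St3gal3*, chr4:118083772-118083831, minus strand: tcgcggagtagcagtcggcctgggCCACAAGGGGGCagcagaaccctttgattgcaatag
Hub nearest *Zbtb40*, chr4:137072761-137072820, minus strand: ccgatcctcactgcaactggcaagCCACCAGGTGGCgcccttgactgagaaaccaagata
Hub at *Klf6*, chr13:5864718-5864777, minus strand: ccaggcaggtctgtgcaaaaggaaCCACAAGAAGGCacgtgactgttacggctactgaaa
Hub at *Bcl6*, chr16:23984339-23984398, plus strand: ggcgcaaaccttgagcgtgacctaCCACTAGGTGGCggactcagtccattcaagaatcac
Hub at *Hes1*, chr16:30060008-30060067, plus strand: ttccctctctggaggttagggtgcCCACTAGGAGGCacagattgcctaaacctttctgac
Hub nearest *N6amt1*, chr16:87248822-87248881, minus strand: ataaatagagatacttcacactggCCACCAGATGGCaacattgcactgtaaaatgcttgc

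By the gene annotation, the *Chrm4* window lay in coding exon, the *St3gal3* and *Bcl6* windows in introns, and the *Klf6* window in an exon that is partly untranslated in some transcripts. The *Creb1*, *Zbtb40*, *Hes1* and *N6amt1* windows lay between genes. Among the 4 printed hubs with all partners on 1 side, the matches nearest *Creb1*, at *Bcl6* and nearest *N6amt1* pointed toward the partners. The match at *Chrm4* pointed away from them.

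A CTCF core match was found in 384 of the 1185 hubs (32.4%), in 25.1% of anchors in 1 interaction and in 6.45% of all 255946 10 kb bins of the same chromosomes. Exactly 1 match was present in 341 hubs. Hubs with partners only to the right, toward higher coordinates, held 147 matches on the plus strand and 23 on the minus strand. The order was turned around in hubs with partners only to the left, which held 26 plus-strand and 169 minus-strand matches. In all, 316 of the 365 matches in hubs with partners on 1 side (86.6%) pointed toward the partners. In anchors of 1 interaction the figure was 1330 of 1678 (79.3%). The 200 hubs with partners on both sides held 30 plus-strand and 37 minus-strand matches, and 3 of these hubs (1.5%) held matches on both strands. With a different consensus, CCNNNAGGGGGC, a match was found in 17.6% of hubs, 15.4% of anchors in 1 interaction and 5.11% of all bins, and 137 of 178 matches in hubs with partners on 1 side (77%) pointed toward the partners.

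**Figure D1:**
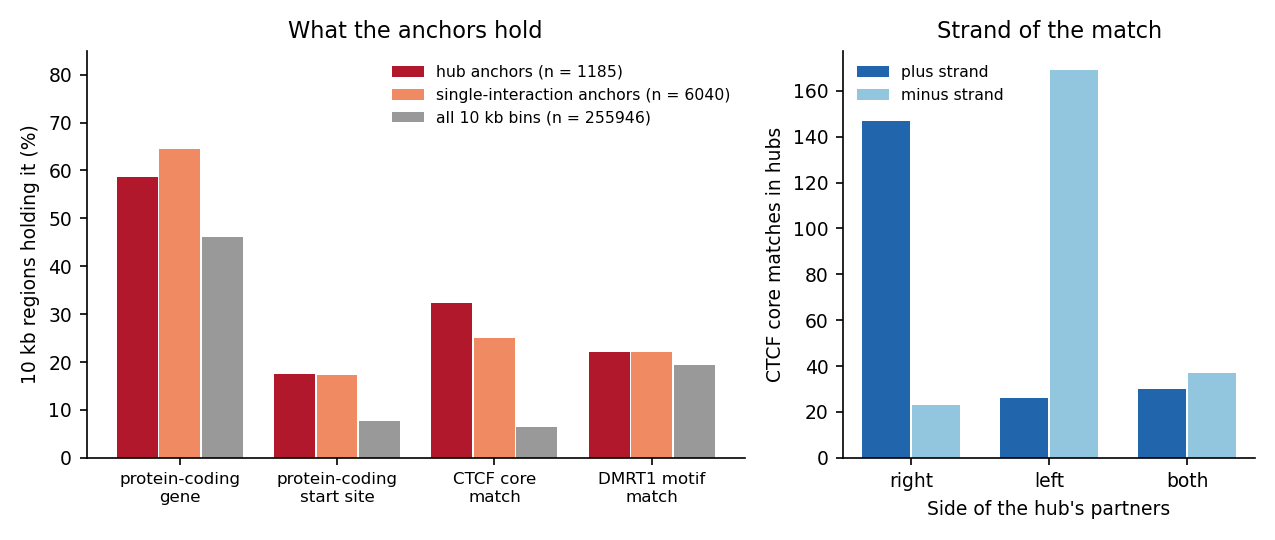
Left, the percentage of 10 kb regions that overlap a protein-coding gene, hold a protein-coding start site, or hold a match to the CTCF core or the DMRT1 motif, for hubs, anchors in 1 interaction and all bins. Right, the number of plus-strand and minus-strand CTCF core matches in hubs by the side of their partners: 147 and 23 for partners to the right, 26 and 169 for partners to the left.

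Interactions with a motif of known strand at both ends were few. Among interactions between 2 hubs, 44 had matches of a single strand at each end, and 29 of these (65.9%) converged, 13 were on the same strand and 2 diverged. The converging share was 63 of 95 (66.3%) with 1 hub end and 106 of 155 (68.4%) with none. No test was made between these shares. The DMRT1 motif, searched as GNNACANTGTNNC, which reads the same on both strands, was found in 261 hubs (22%), 22.1% of anchors in 1 interaction and 19.3% of all bins. Median GC content was 45.3% in hubs, 44.8% in anchors of 1 interaction and 41.2% over all bins.

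Most hubs reached in 1 direction. Partners lay only to the right in 493 hubs (41.6%), only to the left in 492 (41.5%) and on both sides in 200 (16.9%). The nearest partner was a median of 190 kb away and the farthest 400 kb. Interactions between 2 hubs spanned a median of 330 kb (quartiles 220 and 520 kb, 422 interactions). Those with 1 hub end spanned 260 kb (170 and 420 kb, 1698 interactions), and those with no hub end 200 kb (150 and 330 kb, 2171 interactions). No interaction in the list was shorter than 120 kb or longer than 1890 kb. A link to another hub was present in 610 hubs (51.5%). Of the 1558 pairs of partners that shared a hub, 11% were themselves joined, which closed 57 triangles.

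Counting by 10 kb bins can split 1 contact over neighbouring bins. In 62 hubs all partners lay in touching bins, and 38 hubs touched another hub. When anchors that touched or lay 1 bin apart were merged before counting, 1749 regions were in 2 or more interactions. The *Chrm4* hub on chromosome 2 may hold such split contacts, since its 4 partners formed 2 pairs of touching bins inside *Atg13* and *Ambra1*. Touching partners also occurred in the *Gja1* hub described below, in the *St3gal3* hub and in the hub nearest *Zbtb40*.

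Hubs were sparse on the X chromosome, which is present in 1 copy in these XY cells. The part of copy number in this was not tested. The X held 11 hubs, or 0.643 per 10 Mb. Autosomes ranged from 3.26 on chromosome 4 to 7.95 on chromosome 11. All anchors were also sparser on the X, at 8.48 per 10 Mb against 21.1 to 40.9 on autosomes, and 7.59% of the X anchors were hubs against 13.4% to 22.9%.

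The hub in most interactions lay next to *Sox9*, the transcription factor gene that directs Sertoli cell differentiation. This anchor, chr11:112770001-112780000, took part in 6 interactions and ended 2224 bases before the *Sox9* start site. *Sox9* therefore does not overlap a hub and was named after the list was seen. From this anchor 5 partners lay to the left, at 420, 560, 870, 1120 and 1240 kb, and 1 lay to the right at 390 kb. None of these partners overlapped a protein-coding gene. The region on that side of *Sox9* is a gene desert known to hold distant gonadal enhancers. The partner to the right and those at 870 and 1240 kb were hubs themselves. The connected group around it had 7 anchors, 4 of them hubs, joined by 8 interactions over 1640 kb. The *Sox9* hub held no CTCF core match and no DMRT1 motif match.

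Across the same desert, the start site of *Kcnj2*, which encodes an inward rectifier potassium channel, lay in another hub (chr11:111060001-111070000) in 3 interactions. Its partners lay 530 kb to the left and 380 and 460 kb to the right, and all 3 were hubs outside protein-coding genes.

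*Gja1*, the gene of the gap junction protein connexin 43, started inside a hub (chr10:56370001-56380000) in 5 interactions. All 5 partners lay to the right, at 230, 620, 630, 810 and 1070 kb, and none overlapped a protein-coding gene. *Sema5a*, which encodes a membrane semaphorin, started in the other hub in 5 interactions (chr15:32240001-32250000). Its partners lay 220 and 630 kb to the left and 190, 320 and 480 kb to the right, and those at 190 and 320 kb were inside *Sema5a* itself. The partner at 320 kb was also a hub and both hubs contacted an anchor in *Fam173b*, which closed a triangle.

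Of the 17 hubs in 4 interactions, 9 held a protein-coding start site. These were the start sites of *Mycn* (a MYC family factor), *Klf6* (a zinc finger factor), *Bcl6* (a transcriptional repressor) and *Hes1* (a repressor downstream of Notch). The others were those of *Thbs1* (thrombospondin 1 of the matrix), *Edn1* (the peptide endothelin 1), *Plpp3* (a lipid phosphatase), *Plk2* (a polo-like kinase) and *Chrm4* (a muscarinic receptor). Altogether 11 of the 20 hubs in 4 or more interactions held a protein-coding start site, 14 overlapped a protein-coding gene and 8 held a CTCF core match. The *Bcl6* hub reached 410 kb to the start site of *Lpp* and as far as 1360 kb. The *Mycn* hub and a hub in *Ddx1*, an RNA helicase gene, contacted each other over 270 kb and shared 2 further partners. The *Edn1* hub contacted a hub at the *Hivep1* start site 250 kb to its left.

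Other hubs in 4 interactions stood outside genes. A pair on chromosome 16, 600 kb apart, contacted each other, and both contacted the start site of *Adamts1*, a secreted protease gene, over 840 and 1440 kb. A hub 82645 bases from the *Creb1* start site contacted the start site of *Klf7* 320 kb away. A hub on chromosome 4 (chr4:137070001-137080000) contacted the *C1qa* and *C1qc* start sites on its left and, on its right, a bin 22512 bases from the start site of *Wnt4*, a signalling gene of ovary development.

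**Figure D2:**
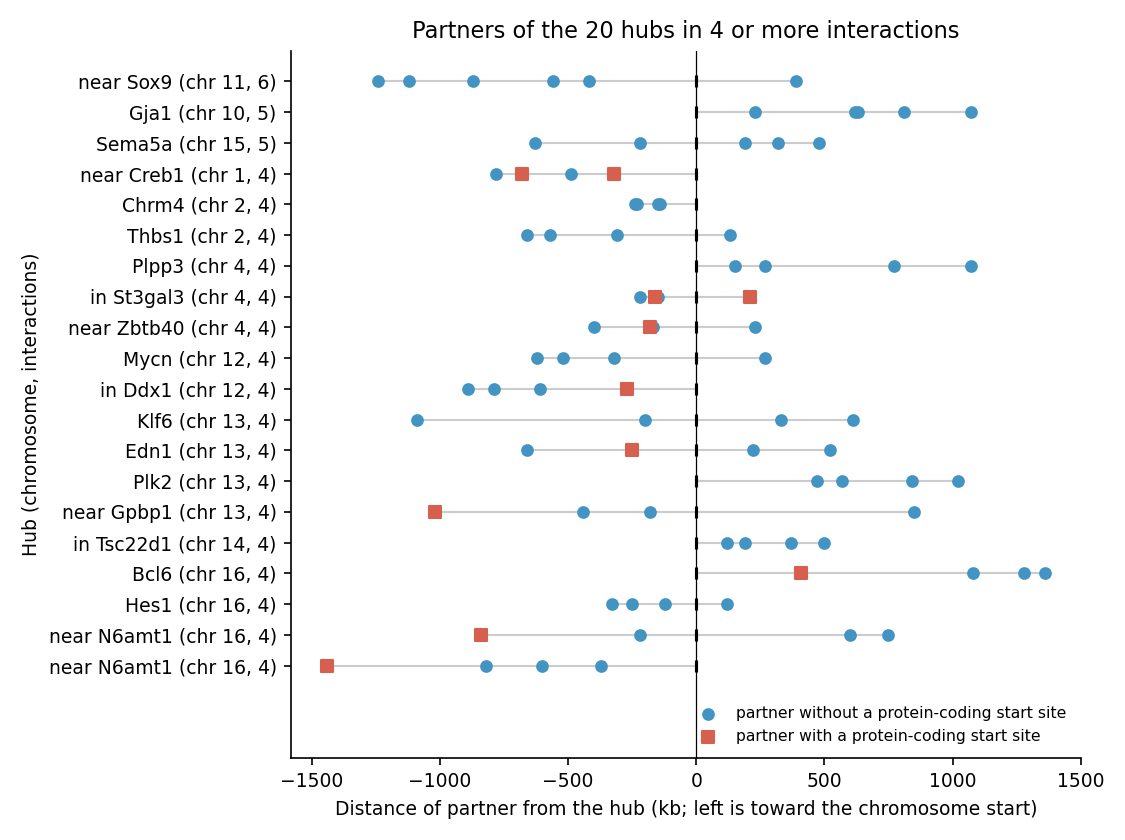
Each row is 1 of the 20 hubs in 4 or more interactions, named by the protein-coding gene that starts in it, contains it or starts nearest to it, with its chromosome and number of interactions. Points give the distance of each partner in kb, left or right of the hub, and squares mark partners that hold a protein-coding start site. The *Gja1*, *Plpp3*, *Plk2*, *Tsc22d1* and *Bcl6* hubs had partners only on the right.

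Over all 1185 hubs, 696 (58.7%) overlapped a protein-coding gene and 208 (17.6%) held a protein-coding start site, while 342 overlapped no annotated gene. Anchors in 1 interaction overlapped a protein-coding gene more often (64.4%) and held a start site as often (17.3%), and over all bins the values were 46.1% and 7.61%. Start sites were more frequent in the 148 hubs in 3 or more interactions (29.1%). Hubs with a start site held a CTCF core match in 17.3% of cases against 35.6% for hubs without, had partners on both sides in 25% against 15.1%, and were in 3 or more interactions in 20.7% against 10.7%. Their partners held a start site themselves in 73 of 472 cases (15.5%), and 42.8% of those partner ends lay outside protein-coding genes. For hubs without a start site the values were close, at 330 of 2070 (15.9%) and 39.4%.

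The hubs overlapped 1064 genes, of which 725 were protein-coding and 115 were lincRNAs, and 1059 were in the count table. The protein-coding ones were long, with a median of 64.1 kb against 47.9 kb for those over anchors in 1 interaction and 17.4 kb for all protein-coding genes. Long genes overlap more bins, so overlap alone favours them. A start site has no length, and 235 protein-coding genes had theirs in a hub.

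Genes that started in hubs were well expressed in P7 Sertoli cells. Levels are given as CPM (a gene's count scaled to the TMM-adjusted size of its library) per kb of exon. The median over the 235 genes was 3.93, 3.79 and 3.74 in the 3 control libraries and 4.44, 4.79 and 5.37 in the 3 null libraries. For the 1194 genes that started in anchors of 1 interaction it was 3.66, 3.59 and 3.67 in controls and 3.76, 3.8 and 3.82 in nulls. The 20280 protein-coding genes that started in no anchor had medians of 0.862 to 1.08. Hub genes and genes of other anchors were thus close in the controls. In both classes every null library lay above every control. The anchors were taken from null cells alone. Whether this choice favours genes higher in nulls, here and in the counts of called genes below, was not tested. The 47 genes that started in hubs in 3 or more interactions had higher medians, 6.52 to 11.7, with nulls and controls overlapping.

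**Figure D3:**
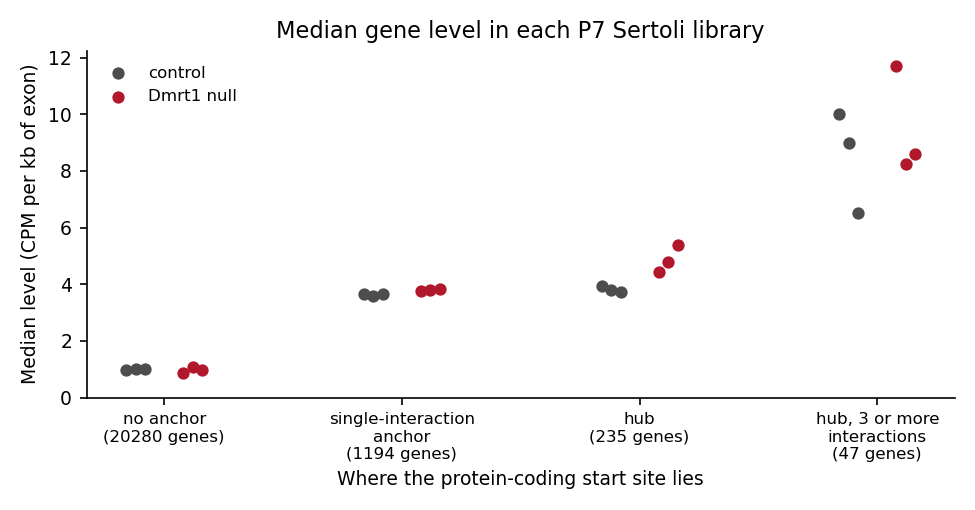
Median level (CPM per kb of exon) of protein-coding genes by where their start site lies, with 1 point for each of the 6 P7 libraries. Medians were 0.862 to 1.08 for genes in no anchor, 3.59 to 3.82 for anchors in 1 interaction, 3.74 to 5.37 for hubs and 6.52 to 11.7 for hubs in 3 or more interactions.

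The 6 P7 libraries held 5043838 to 8965797 counts, those of P28 8909790 to 12792811 and those of P3 7035359 to 9101672. *Dmrt1* itself was at 24.7, 38.2 and 22.2 CPM in the nulls and 179, 172 and 270 CPM in the controls, and its log2 fold change was -2.87 ± 0.27 (SE, adjusted p = 0.00146 by edgeR). None of the Sertoli cell markers on a list of 26 was at 0 in all 6 libraries, and 24 had enough counts to be tested. Their summed level was 6338 to 8115 CPM in nulls and 8251 to 9268 CPM in controls. Markers of other cells were also present. Peritubular and stromal genes (9 genes) summed to 329 CPM in null replicate 2 and 243 CPM in control replicate 2 but to 38.7 to 119 CPM in the others. Endothelial genes (7 genes) summed to 28.3 to 52.1 CPM in nulls and 10.8 to 18.3 CPM in controls, germ cell genes (17 genes) to 270 to 637 CPM and 510 to 917 CPM, Leydig cell genes (9 genes) to 245 to 329 CPM and 177 to 267 CPM, and macrophage genes (8 genes, *Fcgr1* at 0) to at most 7.81 CPM. Their part in the results below was not tested.

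Loss of DMRT1 changed hub genes in both directions at P7. Of 567 hub genes with enough counts to be tested, 25 (4.41%) were higher in null cells and 18 (3.17%) lower, by edgeR's quasi-likelihood test with a change over 2-fold and a p, adjusted by Benjamini and Hochberg over all genes tested, under 0.05. Over all 14013 genes tested the shares were 2.56% higher and 2% lower, and over protein-coding genes 2.69% and 2.09%. Genes over anchors in 1 interaction and over no hub gave 4.13% and 2.27%. The median log2 fold change was 0.09 for hub genes and -0.01 for all genes. With 3 libraries a group the count depended on single libraries. The higher genes numbered 57 without control replicate 2, 14 without control replicate 3 and 12 without null replicate 3, and the lower ones 11 without null replicate 3. Shares over all genes are not given for these fits, so the changes are not shown to be particular to hub genes. Labels do not say that the libraries came from separate cell isolations, so p-values measure the spread between these samples.

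A pair of semaphorin genes was among the 12 hub genes that rose with the smallest adjusted p. *Sema5a*, whose hub was described above, was at 295, 287 and 461 CPM in nulls and 106, 107 and 89.3 CPM in controls. Every null library lay above every control, and the log2 fold change was 1.78 ± 0.22 (SE, adjusted p = 0.00359). *Sema3d*, a secreted semaphorin, was at 122, 150 and 107 CPM in nulls and 49.4, 49.3 and 45.2 CPM in controls, a log2 fold change of 1.40 ± 0.17 (adjusted p = 0.00324). Its hub, inside the gene, contacted the start site of the neighbouring semaphorin gene *Sema3a* 560 kb away.

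*Tgfb2*, a TGF-β ligand gene, started in a hub with partners 240 and 520 kb to the left. It was at 17.3, 33.2 and 32.5 CPM in nulls and 5.96, 6.05 and 4.03 CPM in controls (log2 fold change 2.36 ± 0.33, adjusted p = 0.00646). *Pappa*, a protease gene that acts on IGF-binding proteins, had the smallest log2 fold change of the 12, from 148, 154 and 110 CPM in controls to 280, 288 and 291 CPM in nulls (1.06 ± 0.17, adjusted p = 0.00995). Null libraries were above all controls for both genes, and *Pappa* lost its call in 1 of 10 alternative fits.

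*Kcnj2* was at 11.3, 13.2 and 18.7 CPM in nulls and 2.62, 3.73 and 1.58 CPM in controls (log2 fold change 2.44 ± 0.39, adjusted p = 0.0103), and it lost its call in 1 of 10 alternative fits. *Sox9*, at the far end of the desert, was at 145, 178 and 297 CPM in nulls and 230, 318 and 232 CPM in controls. The *Sox9* groups overlapped and the test was not passed (-0.33 ± 0.27, adjusted p = 0.521). *Cemip*, a hyaluronan-binding protein gene with its start in a hub in 3 interactions, rose from 13.8, 14 and 6.91 CPM in controls to 46.5, 45.8 and 66.8 CPM in nulls (2.19 ± 0.30, adjusted p = 0.00593).

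The remaining 6 of the 12 were *Neto2*, *Rgs7bp*, *Cers4*, *Lsamp*, *Tes* and *Fgfr2*. *Lsamp*, a neuronal adhesion gene, had the largest log2 fold change of the 12 (3.49 ± 0.43) at a low level, 6.46 to 8.84 CPM in nulls and 0.358 to 0.889 CPM in controls. *Neto2*, which encodes an auxiliary subunit of kainate receptors, was at 112, 197 and 110 CPM in nulls and 27.8, 26.1 and 26.6 CPM in controls (2.37 ± 0.25). *Fgfr2*, a fibroblast growth factor receptor gene, counts as a hub gene on doubtful grounds. Its GENCODE gene body stretches across 3 hubs, the nearest of which lies 1603 kb upstream of its RefSeq model. By RefSeq bodies 41 of the 43 called genes overlapped a hub, and *Mir100hg* had no RefSeq match.

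The 12 hub genes that fell with the smallest adjusted p included *Gja1*, *Cldn11* and *Clu*, which are on the junction or Sertoli cell lists described below. *Gja1* fell from 1188, 1388 and 1322 CPM in controls to 425, 440 and 471 CPM in nulls, with all nulls below all controls (log2 fold change -1.54 ± 0.16, adjusted p = 0.00195). *Cldn11*, the claudin of Sertoli cell tight junctions, started in a hub with partners 460 and 640 kb to the right. It fell from 262, 139 and 358 CPM to 42.6, 44.3 and 46.1 CPM (-2.52 ± 0.31, adjusted p = 0.00403). *Clu*, which encodes the secreted chaperone clusterin, fell from 1435, 996 and 1149 CPM to 490, 347 and 463 CPM (-1.46 ± 0.21, adjusted p = 0.00777). The *Clu* hub contacted the start site of *Scara5* 300 kb to the left.

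*Igfbp3*, an IGF-binding protein gene, had the smallest adjusted p of all hub genes. It fell from 117, 88.9 and 113 CPM in controls to 4.92, 10.0 and 6.37 CPM in nulls (-3.92 ± 0.28, adjusted p = 0.000637), and its hub contacted 2 bins 1100 and 1200 kb away. *Slc52a3*, a riboflavin transporter gene, fell from 130, 112 and 145 CPM to 15.2, 20.1 and 30.0 CPM (-2.58 ± 0.26, adjusted p = 0.0016). *Basp1* varied widely among the controls, at 296, 164 and 559 CPM, and was at 22.3, 39.9 and 47.9 CPM in nulls (-3.22 ± 0.47, adjusted p = 0.0075). The other 6 were *Syne3*, *Tspan17*, *Gna14*, *Akap12*, *Pde4b* and *Rgs22*, with log2 fold changes from -3.93 to -1.36.

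**Figure D4:**
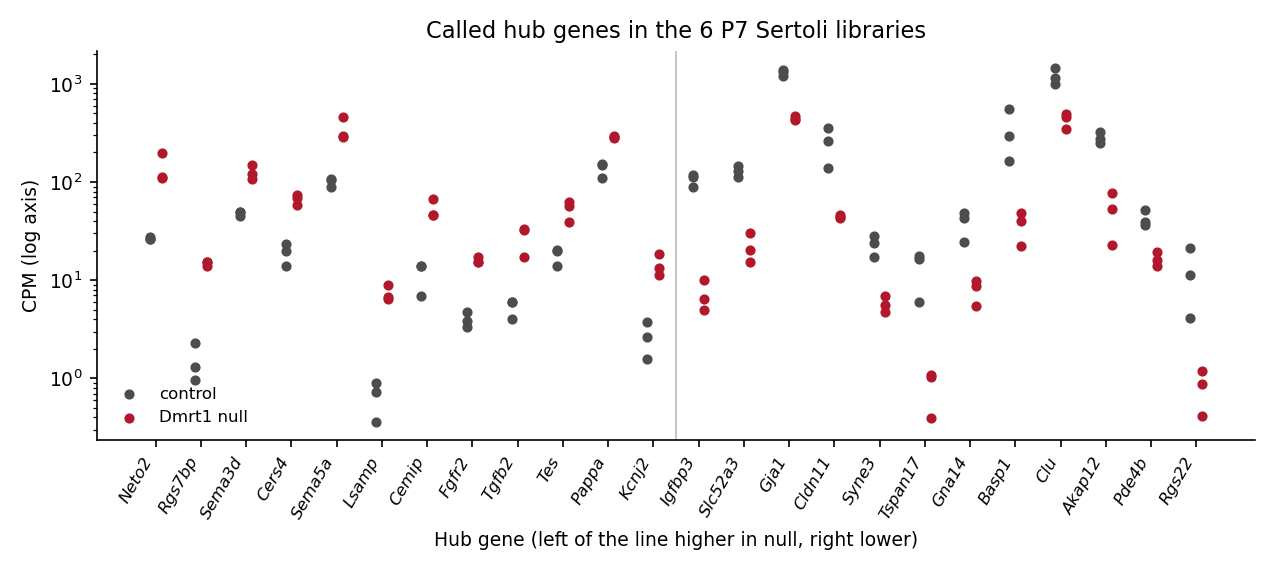
CPM on a log axis in the 3 control and 3 null P7 libraries for the 12 higher and 12 lower hub genes with the smallest adjusted p. For each of these genes the points of nulls and controls do not overlap, which the choice of called genes favours.

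At the hubs in 4 or more interactions 1 of the 16 genes tested (6.25%), *Sema5a*, was higher and 1 (6.25%), *Gja1*, lower, against 2.56% and 2% over all genes. *Klf6* was at 1379, 1690 and 1636 CPM in nulls and 749, 1210 and 737 CPM in controls, and *Tsc22d1*, a TGF-β-induced leucine zipper gene, at 2622, 2432 and 2852 CPM and 1748, 1779 and 1382 CPM. Nulls lay above controls for both, but the adjusted p-values were 0.0882 and 0.0767. *Hes1* ranged from 316 to 765 CPM in nulls and from 62.0 to 319 CPM in controls, with control replicate 2 highest among controls (1.89 ± 0.59, adjusted p = 0.104). *Thbs1*, *Plpp3*, *Mycn*, *Plk2*, *Edn1*, *Bcl6*, *Mdk*, *Ddx1* and *St3gal3* had log2 fold changes between -0.57 and 0.93 and none passed. *Chrm4* was at most 0.533 CPM in the 6 libraries and was not tested.

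*Wnt4*, which overlapped no hub but lay near a partner bin, was higher in nulls, at 15, 5.9 and 10.5 CPM against 0.358, 1.6 and 0.576 CPM in controls (3.69 ± 0.59, adjusted p = 0.0105 by edgeR), and it lost this call in 2 of 10 alternative fits. The *Adamts1* start site, contacted by the pair of hubs on chromosome 16, itself lay in a hub in 3 interactions. *Adamts1* was at 378, 336 and 567 CPM in nulls and 183, 264 and 101 CPM in controls (1.23 ± 0.34, adjusted p = 0.0758 by edgeR). Nulls lay above controls for both, and *Adamts1* did not pass. *Klf7* and *Hivep1*, which started in hubs, and *Lpp*, which overlapped none, had log2 fold changes of -0.29, 0.30 and 0.61. They did not pass either.

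As a background for the lists, 567 of all 14013 genes tested at P7 overlapped a hub, and 545 of the 12328 protein-coding ones. Over all genes tested, 2.56% were higher and 2% lower by edgeR. Of the marker lists, 4 of 26 Sertoli cell genes overlapped a hub. *Cldn11* and *Clu* fell, while *Gata4* (0.68 ± 0.25, adjusted p = 0.168) and the tight junction scaffold gene *Tjp1* (-0.07 ± 0.18, adjusted p = 0.851) did not pass. In the whole list 7 of 24 tested genes fell and 0 rose in edgeR. Of 17 tight junction and adhesion genes, 3 overlapped a hub, of which *Cldn11* and *Gja1* fell, and in the whole list 5 of 13 tested fell. Of 21 granulosa and ovary-determining genes, 4 overlapped a hub, namely *Fgfr2*, *Fst*, *Gja1* and *Inhba*. In the whole list 5 of 15 tested rose and 1 fell. *Inhba*, the inhibin βA subunit gene, was at 13, 61.8 and 14 CPM in nulls and 0.715, 11.4 and 1.73 CPM in controls (2.74 ± 0.96, adjusted p = 0.143), with replicate 2 highest in both groups, as were the stromal markers. *Fst*, which encodes an activin-binding protein, was at 1.86 to 4.52 CPM in nulls and 3.38 to 12.1 CPM in controls (-1.46 ± 0.54, adjusted p = 0.165).

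*Pdgfra* was the 1 stromal gene over a hub, with replicate 2 highest in both groups (82.6 and 52.5 CPM). Of 8 macrophage genes *C1qa* and *C1qc* overlapped hubs and were too low to test. No germ cell, Leydig cell or endothelial gene on the lists overlapped a hub, nor did any of 8 further genes picked from the study's text. Of 592 genes whose symbols begin with a prefix of a transcription factor family, 22 overlapped a hub. The prefixes leave out *Mycn*, *Bcl6* and *Hes1*, so 22 does not count all transcription factor genes over hubs. Among the 16 tested there, 2 rose and 0 fell in edgeR, against 12 higher and 6 lower of 436 tested in the whole list. The 2 were *Foxc1*, a forkhead gene, at 2.19, 4.92 and 10.1 CPM in nulls and 0.238, 0.356 and 0.576 CPM in controls (3.8 ± 0.70, adjusted p = 0.0186), and *Zfpm2*, whose product FOG2 binds GATA4 (1.16 ± 0.27, adjusted p = 0.0461). *Zfpm2* lost its call in 5 of 10 alternative fits and *Foxc1* in 3. *Sox6*, whose start lay in a hub in 3 interactions, was at 86.8 to 104 CPM in nulls and 47.4 to 54.4 CPM in controls, a change under 2-fold (0.86 ± 0.15, adjusted p = 0.0143). Genes of the loop machinery overlapped no hub. Of 21 tested, 0 were called by edgeR and 0 by DESeq2, and log2 fold changes ran from -0.83 to 0.93. An unadjusted p below 0.05 was found for 5 by edgeR. The share of all genes below that limit was not counted, so the 5 are not shown to exceed it. *Rad21*, a cohesin subunit gene, was at 255 to 304 CPM in nulls and 334 to 367 CPM in controls (-0.34 ± 0.15, adjusted p = 0.217), and *Nipbl*, of the cohesin loader, at 148 to 180 CPM and 57.7 to 124 CPM (0.68 ± 0.27, adjusted p = 0.195). *Hdac8*, a cohesin deacetylase gene, and *Cdca5*, which encodes sororin, did not pass either (adjusted p = 0.158 and 0.203).

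At P28, in whole gonads of *Dmrt1* -/- and +/- mice, 204 of 736 hub genes tested (27.7%) were higher in -/- and 235 (31.9%) lower. Over all 20952 genes 19.8% were higher and 38.7% lower. Among protein-coding genes the shares were 23.3% and 30.2%, and genes over anchors in 1 interaction and over no hub gave 22.8% and 30.2%. Fewer cells of a type and less RNA per cell cannot be told apart in whole gonads. Hub genes in 3 or more interactions were higher in 35 of 98 cases (35.7%) and lower in 22 (22.4%), and at hubs in 4 or more interactions 7 of 17 were higher and 1 (*Chrm4*) lower. The 7 included *Thbs1*, at 91.6, 76.7 and 136 CPM in -/- and 21.9, 9.68 and 23.1 CPM in +/- (2.47 ± 0.33, adjusted p = 1.52e-05), and *Mdk*, the growth factor midkine, at 36.6, 40.1 and 29.5 CPM and 4.72, 5.36 and 6.33 CPM (2.69 ± 0.25, adjusted p = 6.14e-07).

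Of the 25 hub genes higher at P7, 17 were also higher at P28 and 4 were lower. Of the 18 lower at P7, 10 were also lower at P28 and 2 were higher. *Gja1* was among those that turned around, at 1377, 1462 and 1528 CPM in -/- and 187, 203 and 237 CPM in +/- gonads at P28 (2.80 ± 0.17, adjusted p = 1.71e-08). The other was *Igfbp3*, at 39.8, 42.2 and 60.8 CPM and 6.56, 7.05 and 18.3 CPM (2.15 ± 0.35, adjusted p = 7.83e-05). *Gata4* and *Inhba*, not called at P7, were higher at P28, with log2 fold changes of 2.90 ± 0.25 and 4.39 ± 0.29. P7 values are of isolated Sertoli cells and P28 values of whole gonads, so age and tissue cannot be told apart. How often all genes called at P7 kept their direction at P28 was not counted. The counts above are therefore not shown to be particular to hub genes.

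**Figure D5:**
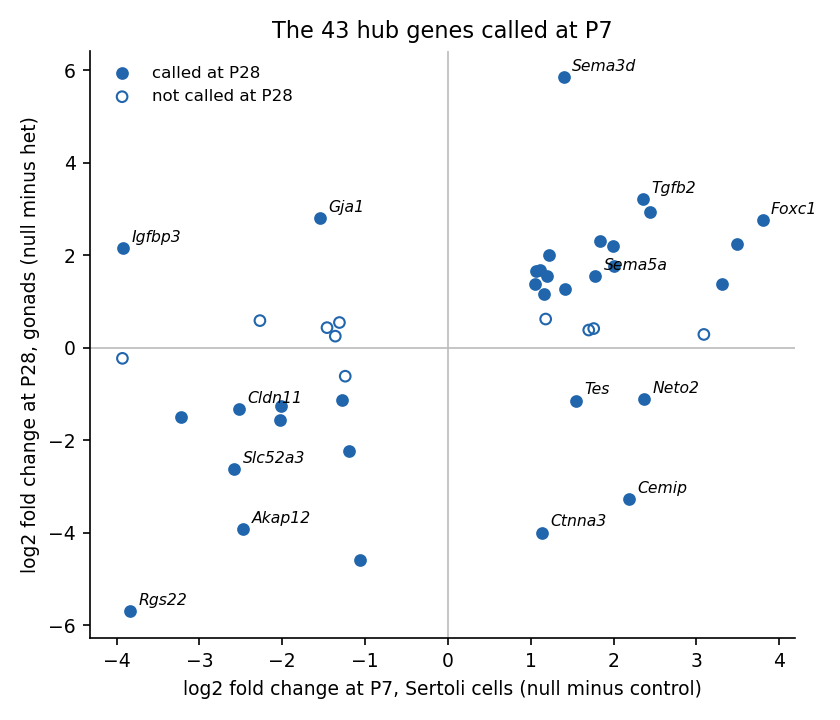
Log2 fold change at P28 (whole gonads, -/- minus +/-) against that at P7 (Sertoli cells, null minus control) for the 43 hub genes called at P7, with filled points for genes also called at P28. *Gja1* and *Igfbp3* lie at upper left, lower at P7 and higher at P28, and *Cemip*, *Neto2*, *Tes* and *Ctnna3* at lower right.

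At P3, 4 of 637 hub genes tested (0.628%) were higher in -/- gonads and 4 (0.628%) lower. Over all 15837 genes 0.202% were higher and 0.309% lower. The higher ones were *Neto2* (1.48 ± 0.14, adjusted p = 0.000236), *Tes* (1.00 ± 0.15), *Cemip* (1.23 ± 0.19) and *Lrp2* (3.16 ± 0.61, adjusted p = 0.0293). The lower ones were *Slc52a3* (-2.71 ± 0.33, adjusted p = 0.00153), *Pde4b* (adjusted p = 0.012), *Cldn11* (-1.37 ± 0.28) and *E130114P18Rik* (-1.16 ± 0.23), and *Lrp2* and *E130114P18Rik* were named after their values were seen. *Slc52a3* and *Cldn11* were lower at all 3 ages. *Slc52a3* was at 6.10, 12.4 and 4.57 CPM in -/- and 46.9, 37.5 and 65.1 CPM in +/- at P3, and at 13.5, 18.8 and 14.3 CPM and 86.5, 73.5 and 128 CPM at P28.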

How the data were processed

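Hi-C (an assay of contacts between chromatin segments) was done with the Arima kit on Sertoli cells. The authors mapped reads to GRCm38 (mm10) with HiC-Pro (3.1.0 in the submitters' processing notes), made matrices with cooler and called interactions at 10 kb with cooltools. The deposited list gives other values than counts, namely the start and end of each anchor. The depth of these libraries was not analysed here, and the labels name granulosa cells in the Hi-C protocol but Sertoli cells elsewhere. For RNA, reads were trimmed (cutadapt 1.18 and Trim Galore 0.6.0) and aligned (STAR 2.7.2a) by the authors, who counted them by strand per GENCODE gene with Rsubread, and the deposited table holds raw counts with 0 columns of no sample.

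Anchors were joined to GENCODE M21 genes (gene bodies, and gene-level start sites) and to the GRCm38 sequence, leaving out bins over 0.5 unsequenced. Sequences are from the RefSeq copy of GRCm38. Counts were filtered (filterByExpr), scaled (TMM) and tested with edgeR 4.0.16 (glmQLFit, glmQLFTest, R 4.3.3) in the 6 P7 libraries, and in the 12 libraries of each other age. CPM values use TMM factors set within each age. Standard errors were back-calculated from F. A gene was called at adjusted p below 0.05 and over 2-fold. The fit was tested on simulated counts. DESeq2 1.42.0, RLE scaling, no count filter, left-out libraries, a replicate block, other hub definitions and other gene models were tried as alternatives. No pair of libraries in a group agreed within sampling noise.

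Hubs and gene lists were chosen with earlier results of these data known. Named genes were those at the hubs in most interactions (10 were planned, and a tie at 4 interactions made it 20), up to 12 called genes in each direction by adjusted p without predicted genes, up to 4 members of each list, and *Dmrt1*. *Sox9*, *Wnt4*, *Klf7*, *Adamts1*, *Hivep1*, *Lpp*, genes at partners and the P3 exceptions were added after the list was seen.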

Additional observations from a re-analysis of the deposited data

Results flagged for a closer look

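For 8 of the 24 hub genes named for their P7 call, the effect at P7 differed from that at P28 and the 2 estimates had opposite signs. The difference was tested (edgeR, 1 fit of all 30 libraries, adjusted over all genes), while the signs were not. These genes were chosen by a call in the same P7 libraries, which favours a large difference. The log2 fold change at P7 minus that at P28 was 3.48 for *Neto2* (adjusted p = 2.64e-10), 5.47 for *Cemip* (adjusted p = 3.34e-11) and 2.71 for *Tes* (adjusted p = 4.41e-07), which were higher at P7 and lower at P28. It was -6.08 for *Igfbp3* (adjusted p = 7.69e-11) and -4.34 for *Gja1* (adjusted p = 1e-11), which were lower at P7 and higher at P28. It was -2.84 for *Gna14* (adjusted p = 3.71e-07), -1.89 for *Clu* (adjusted p = 8.31e-05) and -1.60 for *Pde4b* (adjusted p = 0.000972), which fell at P7 and did not pass both limits at P28. The cells (isolated Sertoli cells or whole gonads) and the control genotype changed together with the age.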

How the results depend on the processing

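Of 102 alternative values of counts and percentages, 68 stayed within their limits and 34 moved, and no named gene's called fold change was reversed in 1660 alternative values. Leaving out a replicate gave 12 to 57 higher and 11 to 24 lower hub genes at P7, 192 to 219 and 228 to 243 at P28, and 2 to 5 and 2 to 4 at P3, where both fell to 2 without control replicate 3 or null replicate 1, and the lower ones also without null replicate 2. DESeq2 gave 39 higher at P7 and 7 higher at P3. Without the count filter there were 55 higher and 31 lower at P7 and 9 higher at P3. Without the fold limit 7 were lower at P3. Restricting to anchors in 3 or more interactions left 5 higher and 2 lower at P7, 35 and 22 at P28, and 1 and 0 at P3 (edgeR throughout), by construction, since fewer genes enter. Requiring the start site in the anchor left 11 and 6, 77 and 79, and 1 and 2. A 10 kb margin gave 354 lower at P28. The share of regions overlapping a protein-coding gene was 64.8% after merging anchors, which lengthens the regions, the share with a start site 23.4% after merging and 29.1% at 3 or more interactions, and the share with a CTCF core match 40.3% after merging and 17.6% with the other consensus, whose matches pointed to the partners in 77% of cases. The cause of the changes between count tests was not tested. Shares over all genes are not given for the alternative fits, so the changes in hub counts cannot be set against them. The main fit did not pair libraries by replicate number. At P7 the same-number correlations were 0.52, 0.227 and -0.0327, and those between different numbers ran from -0.432 to 0.148. Whether the numbers mark shared batches was not tested. A replicate block gave 29 higher and 18 lower at P7, 202 and 232 at P28, and 3 and 3 at P3. Of the 43 genes called at P7, 41 were also called with the block. Of 28 named genes called at P7, 21 were called in every alternative fit, while *Zfpm2* lost its call in 5 of 10, *Foxc1* in 3, *Wnt4* in 2, and *Akap12*, *Kcnj2*, *Pappa* and *Rgs22* in 1 each. RefSeq bodies, an alternative chosen after seeing the data, gave 25 and 18 at P7. The P7 calls rest on 3 libraries per group of 5043838 to 8965797 counts, and the hub list is 1 list for all Hi-C libraries.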
